A study of Mus musculus with 92 samples.

Results

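Ncam2 and Atp1b2 are 2 of the 29956 named genes in an RNA-seq table of mouse macrophages, their progenitors and related cells. Both were chosen by the values of 1 contrast, between ER-Hoxb8 progenitors with the first guide against Adar (sgRNA 1) and progenitors with a non-targeting guide (NTC). Of the 11008 genes tested there, Ncam2 had the largest fall and Atp1b2 the largest rise. At that stage 0 of 20 interferon-stimulated genes were called, where 0.254% of all genes were. The values of that contrast are given as a description with no test. Both genes passed the filter on low values in that fit, Ncam2 through the NTC libraries and Atp1b2 through the sgRNA 1 libraries. Tests of the members are given for other libraries, and in each fit a member passed the filter mostly through the groups where it is high.

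Ncam2 encodes a neural cell adhesion molecule of the immunoglobulin superfamily, best known from olfactory and other neurons, where it lies on axons and dendrites. Atp1b2 encodes the beta 2 subunit of the sodium-potassium pump (Na,K-ATPase), a subunit that the pump needs to reach the cell surface, and it was also described as an adhesion molecule of glia. ADAR1, the product of Adar, converts adenosine to inosine in double-stranded RNA, and cells that lack it can sense their own RNA and start an interferon response. Baricitinib inhibits the Janus kinases through which interferon receptors signal.

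The study compared macrophages from bone marrow (BM) with macrophages grown from ER-Hoxb8 cells, which are progenitors held immature by an estrogen-dependent Hoxb8 protein. The 92 libraries fall into 25 groups. BM progenitors (lineage-negative cells), BM monocytes and BMD macrophages (7 days in vitro) came from WT FVB mice, with 3 libraries each, and ages are not in the labels. ER-Hoxb8 progenitors, ER-Hoxb8 cells at day 4 of differentiation and ER-Hoxb8 macrophages at day 7 came from FVB Cas9 mice (Cas9 het), also with 3 libraries each. Microglia-like cells (MLCs) were BM cells or ER-Hoxb8 cells injected into the brain of Csf1r KO hosts and sorted back out, with 6 libraries of BMD MLCs and 6 of ER-Hoxb8 MLCs. The labels give no genotype of the injected cells. The 9 microglia libraries came from uninjected WT FVB mice, and the library names of replicates 8 and 9 begin with YSWT, the others with WT. The guide groups were Cas9 het ER-Hoxb8 lines, labelled NTC or Adar KO, and the labels do not call them clones. Tests between guides thus rest on the spread between libraries within these lines. An effect of a guide and a difference between lines cannot be told apart by them. Progenitors of NTC, sgRNA 1 and sgRNA 2 had 3 libraries each, as did macrophages (7 days) of NTC and of sgRNA 1, and sgRNA 2 macrophages had 5. NTC macrophages with baricitinib at 0, 0.0006, 0.016, 0.4 and 10 uM had 3, 3, 4, 4 and 3 libraries, and sgRNA 1 macrophages at the same doses had 3, 3, 3, 3 and 4. These doses are those of the sample labels, and the treatment protocol of the labels gives other figures for the second and the third dose, so they are used here as names of groups.

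The deposited values are log2 CPM (counts scaled to the depth of the library), and libraries normalized together share 1 lowest value. By that mark the libraries fall into 6 sets, and differences were computed within sets alone. NTC and sgRNA 1 progenitors and macrophages form a set of 11 libraries with 22.6 to 34.3 M counts each, and NTC macrophage replicate 2 (20 M) is alone in another. The 8 sgRNA 2 libraries (17 to 28.5 M) and the 33 baricitinib libraries (6.09 to 33.3 M) are sets of their own, so values of sgRNA 2 stand beside those of NTC without a test. BM progenitors, BM monocytes, ER-Hoxb8 progenitors and day 4 cells form a set of 12 (33.5 to 52.6 M). Macrophages without a guide, MLCs and microglia form a set of 27 (9.45 to 35.3 M). A rebuilt count that rounds to 3 or fewer in a library is treated as the floor of detection, and floors and counting intervals cover counting error only. Depths and rebuilt counts are estimates from the commonest small step of the values in a library, and are not counted reads. The lowest value of the set of 11 implies a mean depth of 21.5 M, below its lowest estimate of 22.6 M. Floors and counting intervals are thus approximate. In bulk RNA, fewer cells of a type and less RNA per cell cannot be told apart.

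Adar, the gene the guides target, was not lower in the Adar KO progenitors or macrophages. Its mean log2 CPM was 3.97 ± 0.47 (SD, n = 3) in NTC progenitors, 4.28 ± 0.07 in sgRNA 1 progenitors and 4.42 ± 0.12 in sgRNA 2 progenitors. In macrophages it was 5.70 ± 0.04 (n = 2) for NTC, 7.04 ± 0.10 (n = 3) for sgRNA 1 and 7.01 ± 0.02 (n = 5) for sgRNA 2. Small insertions or deletions made by Cas9 need not lower the RNA of a gene, so these levels do not check the KO label. Over the doses from 0 to 10 uM, mean Adar was 4.92, 4.84, 4.41, 4.23 and 3.52 in NTC macrophages. In sgRNA 1 macrophages it was 6.77, 6.02, 6.18, 5.24 and 2.16 at these doses. Adar is itself induced by interferon, and at 10 uM it lay below NTC in sgRNA 1 macrophages (log2FC -1.36, SE 0.45, adjusted p = 0.0146 in limma, short of the log2FC limit of 2). Without a guide, Adar was 5.37 in BM progenitors, 6.03 in BM monocytes, 5.20 in ER-Hoxb8 progenitors and 5.51 in day 4 cells. It was 5.86 in BMD macrophages, 5.39 in ER-Hoxb8 macrophages, 4.58 in BMD MLCs, 5.08 in ER-Hoxb8 MLCs and 3.38 in microglia.

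Markers of stage followed the labels of the guide lines. The 5 progenitor genes Kit, Cd34, Mpo, Elane and Myb summed to a mean of 20371 CPM in NTC progenitors, 14234 in sgRNA 1 progenitors and 2645 in sgRNA 2 progenitors, with Mpo the most abundant, and to 1.58, 5.62 and 6.92 CPM in the macrophages of these lines. The 7 macrophage genes with values, Csf1r and Cd68 among them, summed to 224 to 362 CPM in those progenitors and to 5440 to 9074 CPM in the macrophages. ER-Hoxb8 progenitors without a guide went against their label in 2 of 3 libraries. Their progenitor sums were 72.1, 28.7 and 2850 CPM in replicates 1, 2 and 3, and their macrophage sums were 2146, 5086 and 460 CPM. BM progenitors had 12092 CPM of progenitor genes beside 1884 CPM of 5 neutrophil genes (Camp highest).

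Interferon-stimulated genes set the 2 stages of the KO lines apart. The median log2 CPM of the 20 genes the study plots lay between 0.13 and 0.47 in the libraries of sgRNA 1 progenitors, 0.10 and 0.40 in NTC progenitors and 0.62 and 0.92 in sgRNA 2 progenitors. In macrophages it lay between 7.93 and 8.55 for sgRNA 1, 7.74 and 7.86 for sgRNA 2, and 3.9 and 3.98 for NTC. In sgRNA 1 against NTC progenitors 0 of the 20 were called in limma (6 at an unadjusted p under 0.05). Of all 11008 genes, 0.254% were called there (725 at that unadjusted p), so 0 of 20 does not show these genes unchanged. Their median log2FC was -0.175, against -0.0148 over all genes tested. In macrophages 20 of 20 were higher, where 4.02% of all genes were called. The list is the one the study plots for these samples, so its direction is not independent evidence. With baricitinib, 1 library stood apart: sgRNA 1 macrophages at 0.4 uM, replicate 2, had an interferon median of 9.80 where replicates 1 and 3 had 1.15 and 3.17. Its Adar was 7.38, against 4.12 and 4.21.

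In the progenitors that chose the members, Ncam2 was an expressed gene of the NTC line that was close to absent with sgRNA 1. Its log2 CPM was 4.30, 5.14 and 5.19 in NTC progenitors and -1.90, -1.28 and -0.87 in sgRNA 1 progenitors. The groups did not overlap, and the difference of the means was -6.22 (SE 0.34). In rebuilt counts, 2381 of Ncam2 in the NTC libraries stood against 24 in the sgRNA 1 libraries, a ratio of 98.8 (95% counting interval 66.3 to 155). Atp1b2 showed the opposite order, from a low level to a clear one. Its log2 CPM was -0.27, -0.08 and -0.31 in NTC progenitors and 3.76, 4.55 and 4.38 in sgRNA 1 progenitors, a difference of 4.45 (SE 0.33). The sgRNA 1 libraries held 1461 rebuilt counts of it and the NTC libraries 59, a ratio of 24.9 (95% counting interval 19.2 to 32.8). Between libraries of the same replicate number, deviations from the group means correlated with r from 0.158 to 0.349. With the replicate number as a block, the differences were -6.22 and 4.45. Such a block cannot move them, since both groups hold the same replicate numbers. Of 11008 genes, 28 were called (0.254%), 9 higher and 19 lower, a count that holds both members by their choice. The called genes next to Ncam2 in fall were Pls3 (-4.11), Lat2 (-3.94) and Fah (-3.73), and those next to Atp1b2 in rise were Lin28b (3.72), Stag3 (3.23) and Prkch (3.10).

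**Figure D1:**
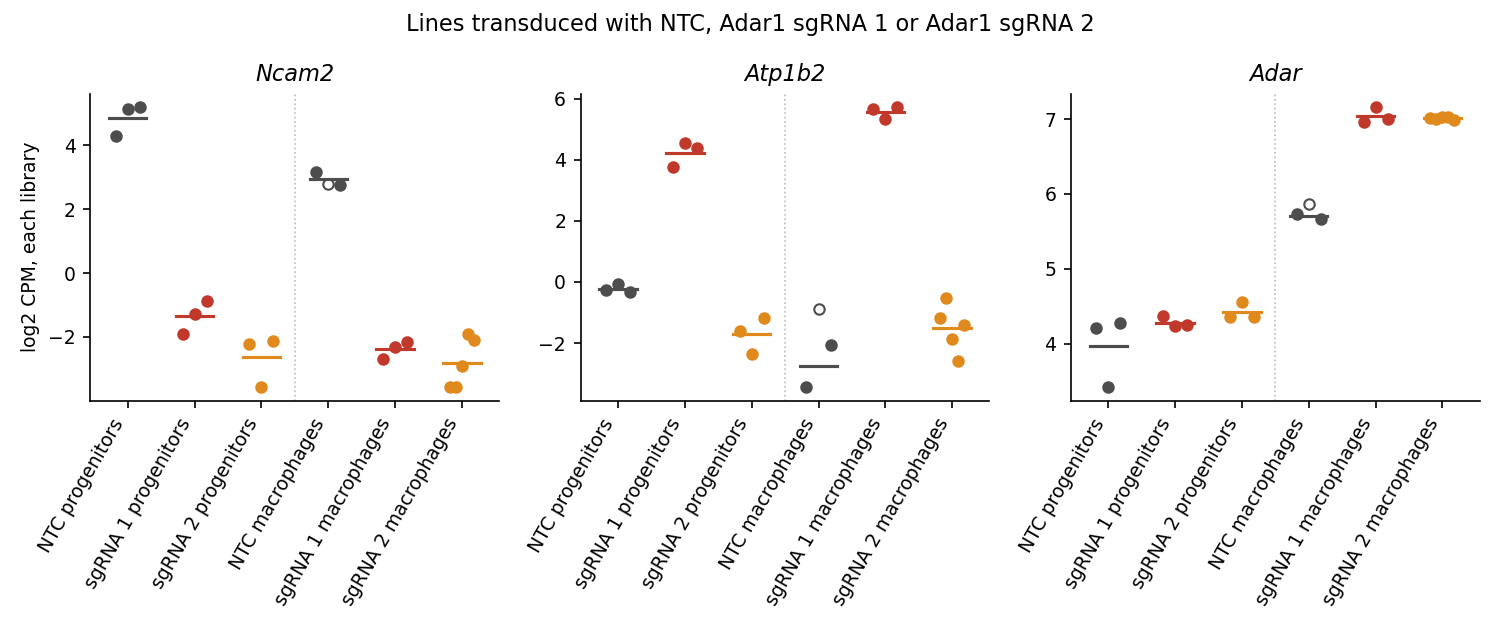
Log2 CPM of Ncam2, Atp1b2 and Adar in each library of the NTC, sgRNA 1 and sgRNA 2 progenitors and macrophages, with bars at the group means over libraries of 1 set; the open circle is NTC macrophage replicate 2, which has its own lowest value and is not in the mean. Ncam2 is high in NTC libraries alone (2.76 to 5.19), and Atp1b2 is high in sgRNA 1 libraries alone (3.76 to 5.71), while sgRNA 2 libraries are low for both.

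Of the members, 1 has a promoter in the RefSeq table at hand, and it is shown because the choice of Ncam2 rests on its RNA while interferon genes were still low. It was read beside that of Cxcl10, an interferon-stimulated gene of the study's list. Each run covers 250 bases before to 50 after the start of the gene in GRCm38.p6. Capitals mark GGGCGG (a GC box, read on both strands) in Ncam2, at chr16:81200447-81200746 on the plus strand, and GAAANNGAA (an interferon-response motif, both strands) in Cxcl10, at chr5:92348840-92349139 on the minus strand.
Ncam2: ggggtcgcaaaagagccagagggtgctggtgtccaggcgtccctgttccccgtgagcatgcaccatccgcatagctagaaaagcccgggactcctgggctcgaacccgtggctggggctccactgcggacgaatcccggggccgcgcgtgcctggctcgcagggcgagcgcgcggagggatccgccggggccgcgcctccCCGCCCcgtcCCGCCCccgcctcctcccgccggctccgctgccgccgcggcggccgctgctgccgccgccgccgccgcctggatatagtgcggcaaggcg
Cxcl10: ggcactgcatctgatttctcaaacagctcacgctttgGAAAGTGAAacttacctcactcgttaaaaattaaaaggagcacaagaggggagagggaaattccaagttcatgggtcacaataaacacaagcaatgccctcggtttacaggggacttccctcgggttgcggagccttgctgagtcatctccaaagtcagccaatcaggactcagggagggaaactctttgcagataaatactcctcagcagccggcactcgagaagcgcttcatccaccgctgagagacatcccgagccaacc
The Ncam2 window held 2 GC boxes, which 35.7% of the 32851 promoters in the table hold at least once. It held 0 matches to GAAANNGAA (in 8.56% of promoters), TTCNNNGAA (8.30%), TATAAA (13.6%), CCAAT (37.4%) and CACGTG (7.15%), each searched on both strands. It was rich in CpG, with 41 against a median of 7, a number that 3.46% of promoters reach, and its GC content was 75.7% against a median of 52.7%. Of the 20 interferon-stimulated genes, 15 have a promoter in the table and 11 of these hold GAAANNGAA. A match describes letters in this window and nothing more.

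Macrophages with the same guides showed both differences at the next stage, in libraries the choice did not use. Ncam2 stood at 3.16 and 2.76 log2 CPM in NTC macrophages and at -2.69, -2.32 and -2.16 in sgRNA 1 macrophages. NTC macrophage replicate 2, of another set, had 2.80. All 3 sgRNA 1 libraries held Ncam2 at or under the floor (9 counts in all), so its ratio of 75.9 to NTC has a 95% counting interval of 39.6 to 167. The fitted log2FC of Ncam2 was -5.35, a value that depends on the prior count. It is given without the test of that fit, since Ncam2 passed the filter only with the help of the NTC progenitors that chose it. Atp1b2, close to its floor in NTC macrophages, was among the strongly expressed genes that set sgRNA 1 macrophages apart. Its log2 CPM was -3.43 and -2.08 in NTC macrophages (-0.89 in replicate 2) and 5.67, 5.34 and 5.71 in sgRNA 1 macrophages. The NTC libraries of the set held 4 counts and the sgRNA 1 libraries 4214, a ratio of 569 (95% counting interval 222 to 2089). The log2FC of Atp1b2 was 8.32, in a fit of all 11 libraries of the set that called 4.02% of the 11008 genes (442, of them 357 higher and 85 lower). Its variance draws on the 6 libraries that chose the members, so the members were tested with the 5 macrophage libraries alone and no filter on low values, an alternative added after seeing the data. There limma called Atp1b2 higher (adjusted p = 0.000911) and Ncam2 lower (adjusted p = 0.00135). By their labels these macrophages are the same 2 lines at another stage, not other lines. The names of the NTC libraries differ between the stages, and whether they are a single line was not tested.

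With the second guide, Ncam2 was low as with sgRNA 1, but Atp1b2 was low as in NTC. Ncam2 was low in sgRNA 2 progenitors as well, at -2.22, -3.56 and -2.13 log2 CPM (7 counts in all). In sgRNA 2 macrophages it was -3.56, -3.56, -2.90, -1.91 and -2.10 (9 counts). For Ncam2 the sgRNA 2 line thus stood near the sgRNA 1 line and far from the NTC line, whose 5 values in the main set ran from 2.76 to 5.19. Atp1b2 was -1.60, -2.36 and -1.18 in sgRNA 2 progenitors (19 counts) and -1.19, -0.53, -1.87, -2.57 and -1.40 in sgRNA 2 macrophages (30 counts). For Atp1b2 the sgRNA 2 line thus stood near the NTC line, below every sgRNA 1 library (3.76 to 5.71). Neither member passed the filter on low values in the sgRNA 2 fit, and no fold is given across sets. Between sgRNA 2 macrophages and progenitors 19.3% of 10698 genes were called (2064), among them 19 of the 20 interferon-stimulated genes, all higher, and Adar (log2FC 2.59, SE 0.06, adjusted p = 3.87e-11).

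Across the 2 stages, the values of both members are given as a description, and Ncam2 in sgRNA 1 and both members in sgRNA 2 were too low for a change to be judged. From progenitors to macrophages, mean Ncam2 differed by -1.91 log2 in NTC and by -1.04 in sgRNA 1, where all 3 macrophage libraries were at or under the floor. In sgRNA 2 the ratio of Ncam2 in macrophages to progenitors was 0.984 in counts (9 against 7, 95% counting interval 0.326 to 3.11). Mean Atp1b2 differed by -2.53 in NTC and 1.34 in sgRNA 1, and in sgRNA 2 its ratio was 1.21 (30 against 19 counts, 95% counting interval 0.658 to 2.27). In NTC and in sgRNA 1 the stages did not overlap for either gene, though Atp1b2 in NTC macrophages rests on 4 counts. The difference of the stage differences between sgRNA 1 and NTC was 0.87 for Ncam2, 3.87 for Atp1b2 and 1.03 for Adar. Adar differed by 1.73, 2.76 and 2.59 from progenitors to macrophages in NTC, sgRNA 1 and sgRNA 2. These stage values use the libraries that chose the members, so they were not tested.

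With baricitinib, Ncam2 was high in NTC and low in sgRNA 1 macrophages at every dose. In NTC macrophages Ncam2 was 5.90, 6.08 and 6.08 log2 CPM at 0 uM, 6.15, 6.33 and 6.34 at 0.0006 uM, and 6.13, 6.51, 6.19 and 6.17 at 0.016 uM. It was 6.26, 6.38, 6.28 and 6.40 at 0.4 uM and 6.38, 6.08 and 6.20 at 10 uM. All 17 NTC libraries were high, within a range of 5.90 to 6.51. Mean Ncam2 was 64.9 CPM in NTC at 0 uM and 7.78 CPM in NTC macrophages of the main set (n = 2), side by side with no test. The NTC level of Ncam2 thus differed between the sets. By the study's methods the baricitinib libraries were sequenced at another site, and the cause was not tested. In sgRNA 1 macrophages Ncam2 was -1.19, -1.51 and -1.78 at 0 uM, -1.02, -1.38 and 0.14 at 0.0006 uM, and -0.95, -1.71 and -1.52 at 0.016 uM. It was -1.29, -0.85 and -0.98 at 0.4 uM and -1.20, -0.58, -0.33 and -2.78 at 10 uM. All 16 sgRNA 1 libraries lay below every NTC library, and 7 of them were at or under the floor. Ratios of NTC to sgRNA 1 in counts were 310 (95% counting interval 157 to 720) at 0 uM, 137 (86.3 to 231) at 0.0006 uM and 384 (208 to 800) at 0.016 uM. They were 253 (162 to 421) at 0.4 uM and 186 (126 to 288) at 10 uM. At 0.0006 uM, 12.89 of the 18 sgRNA 1 counts were in replicate 3, with 3.67 and 1.85 in the others, so that ratio rests in large part on replicate 3.

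Ncam2 had the lowest log2FC of all 11152 genes tested at each of the 5 doses, in limma fits of sgRNA 1 against NTC. It passed the filter through the NTC libraries alone, was called at every dose with no filter as well, and has a log2FC whose size depends on the prior count. It was -7.51 (SE 0.39, adjusted p = 7.97e-14) at 0 uM and -7.44 (SE 0.36, adjusted p = 1.38e-14) at 10 uM. At the doses between, Ncam2 was -7.03, -7.65 and -7.37, with adjusted p of 2.59e-13, 4.63e-15 and 3.54e-14. These p-values rest on the spread between libraries within each line, so they do not set the guide apart from the line. Genes called at the 5 doses made up 3.87% (432), 5.00% (558), 5.12% (571), 1.78% (199) and 3.14% (350) of those tested. Of the 20 interferon-stimulated genes, 18, 16, 20, 16 and 0 were higher at these doses, with 1 at an unadjusted p under 0.05 at 10 uM. Within the NTC line Ncam2 was not called at any dose, though the 3 libraries at 0 uM lay below all 11 at the next 3 doses. Its log2FC against 0 uM was 0.25, 0.23, 0.31 and 0.20 (SE 0.36 to 0.39, adjusted p of 1, 1, 1 and 0.785). In the NTC line 0% (345 genes at an unadjusted p under 0.05 in limma), 0% (434), 0% (598) and 0.834% (93 called) of genes were called at the 4 doses. At 0.4 uM 1 gene was called without NTC 0 uM replicate 2 and 1 without NTC 0.4 uM replicate 4. At 10 uM 61 were called without NTC 0 uM replicate 1. Of the 20 interferon-stimulated genes, 6 were lower in NTC at 10 against 0 uM, or 3 without that replicate.

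Atp1b2 was high in sgRNA 1 macrophages at every dose, with the lowest levels at 10 uM. Its log2 CPM was 5.30, 6.42 and 6.57 at 0 uM, 6.20, 7.78 and 6.83 at 0.0006 uM, and 7.01, 6.04 and 6.75 at 0.016 uM. It was 6.10, 5.55 and 7.29 at 0.4 uM and 4.85, 2.60, 4.30 and 4.68 at 10 uM. The 4 libraries at 10 uM lay below the other 12, which overlapped among themselves. In NTC macrophages Atp1b2 was -0.05, -1.57 and -1.63 at 0 uM, -2.78, -2.78 and -1.33 at 0.0006 uM, and -2.78, -2.78, -2.13 and -1.98 at 0.016 uM. It was -2.78, -2.78, -1.52 and -1.43 at 0.4 uM and -2.78, -2.78 and -1.32 at 10 uM. Of these 17 NTC libraries, 15 were at or under the floor, so no fold between doses is given for Atp1b2 in the NTC line, where it was not called at any dose. Ratios of sgRNA 1 to NTC were 217 (95% counting interval 129 to 397) at 0 uM and 173 (67.6 to 638) at 10 uM. At the doses between they were 1382 (473 to 6704), 1323 (452 to 6418) and 796 (366 to 2171), where the NTC libraries held 3, 3 and 6 counts in all. At 0 uM, 8.67 of the 14 NTC counts were in replicate 1, with 2.86 and 2.95 in the others, so that ratio rests in large part on replicate 1.

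Against NTC, Atp1b2 was called higher at all 5 doses, with a log2FC of 7.18 (SE 0.60, adjusted p = 7.69e-10 in limma) at 0 uM and 6.40 (SE 0.57, adjusted p = 7.89e-10) at 10 uM. In between, Atp1b2 had a log2FC of 9.23, 9.02 and 8.44, with adjusted p of 6.3e-12, 2e-12 and 2.36e-11. It passed the filter through the sgRNA 1 libraries alone, was called at every dose with no filter as well, and ranked first of 11152 genes at every dose but 0 uM, where it ranked sixth. The p-values against NTC rest on the spread within lines here too. Within sgRNA 1 macrophages, 10 against 0 uM gave Atp1b2 a log2FC of -1.99 (SE 0.57, 95% interval -3.15 to -0.83, adjusted p = 0.00302), just short of the limit of 2, with a CPM 4.06 times as high at 0 uM (95% counting interval 3.79 to 4.36). It would be called with log2FC of -2.39 without sgRNA 1 0 uM replicate 1, and with -2.24, -2.05 and -2.18 without 10 uM replicates 1, 3 and 4. The lower doses gave 0.84, 0.50 and 0.22, each with overlapping groups and none called. In that line 0.0628% (7), 0.152% (17), 1.93% (215) and 14.7% (1635) of genes were called at the 4 doses against 0 uM, and 18 of 20 interferon-stimulated genes were lower at 10 uM. Markers of stage moved at 10 uM too. Progenitor genes summed to 0.974 to 3.33 CPM at 0 uM and 10.9 to 14.4 CPM at 10 uM, with Cd34 called higher. Macrophage genes summed to 5941 to 6177 CPM and 3599 to 4345 CPM, with Fcgr1 called lower. Their part in the level of Atp1b2 was not tested. Ncam2 in sgRNA 1 macrophages had a log2FC of 0.74, 0.10, 0.45 and 0.27 against 0 uM, none called. It lay near its floor there, so these values follow the prior count in large part and a change between doses could not be judged.

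Whether the drug acted differently in the lines was tested as an interaction between genotype (here the line) and 10 uM. For Atp1b2 it was -0.78 (SE 0.83, 95% interval -2.48 to 0.92, adjusted p = 0.483 in limma) and for Ncam2 0.07 (SE 0.53, 95% interval -1.02 to 1.16, adjusted p = 0.933). Neither member was called, where 7.11% of 11152 genes were (793). Atp1b2 in NTC and Ncam2 in sgRNA 1 macrophages lie near the floor, where a fold between doses follows the prior count in large part. A smaller fold in those groups was not detectable at this depth. These interactions thus cannot decide whether the drug acted differently on the members. Adar had an interaction of -3.21 (SE 0.66, adjusted p = 0.000369), and 13 of 20 interferon-stimulated genes were called, all negative.

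The library that stood apart, sgRNA 1 at 0.4 uM replicate 2, had the lowest Atp1b2 of its group (5.55) beside the highest Adar. Without it, sgRNA 1 against NTC at 0.4 uM gave Ncam2 a log2FC of -7.47 and Atp1b2 one of 8.82, both still called. The genes called at that dose went from 199 to 110 and the interferon-stimulated genes from 16 to 4, and without replicates 1 and 3 the genes called were 329 and 311. Against 0 uM in the sgRNA 1 line, the genes called at 0.4 uM went from 215 to 477 without replicate 2. The interferon-stimulated genes lower there went from 10 to 19 without replicate 2, to 0 and 1 without replicates 1 and 3, and to 4 and 5 without 0 uM replicates 1 and 2. For 0.0006 uM against 0 uM the 7 genes called went to 0 without 0 uM replicate 1 and to 17 without replicate 3. For 0.016 uM the 17 genes went to 2 and 36 without these, and to 5, 8 and 33 without 0.016 uM replicates 1, 2 and 3.

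**Figure D2:**
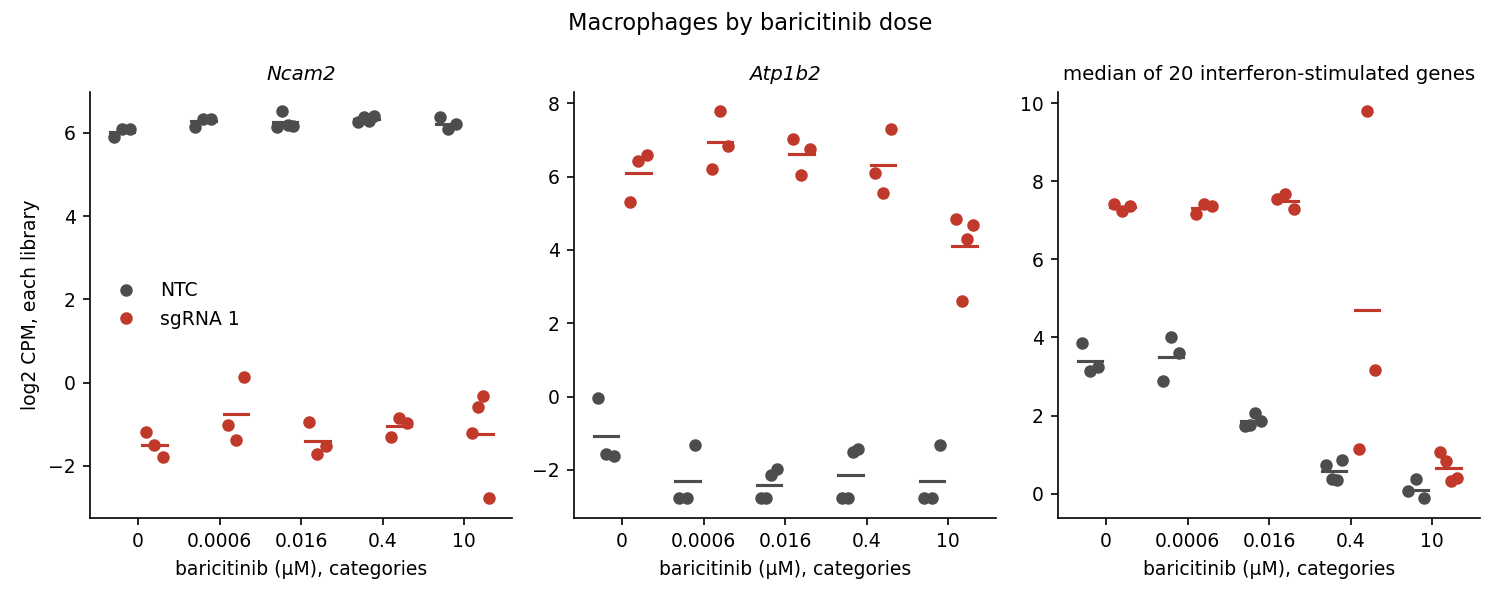
Log2 CPM of Ncam2, Atp1b2 and the median of the 20 interferon-stimulated genes in each library of NTC and sgRNA 1 macrophages by baricitinib dose (uM, drawn as categories), with bars at the group means. Ncam2 stays between 5.90 and 6.51 in NTC at all doses, and Atp1b2 in sgRNA 1 is lowest at 10 uM (2.60 to 4.85).

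**Figure D3:**
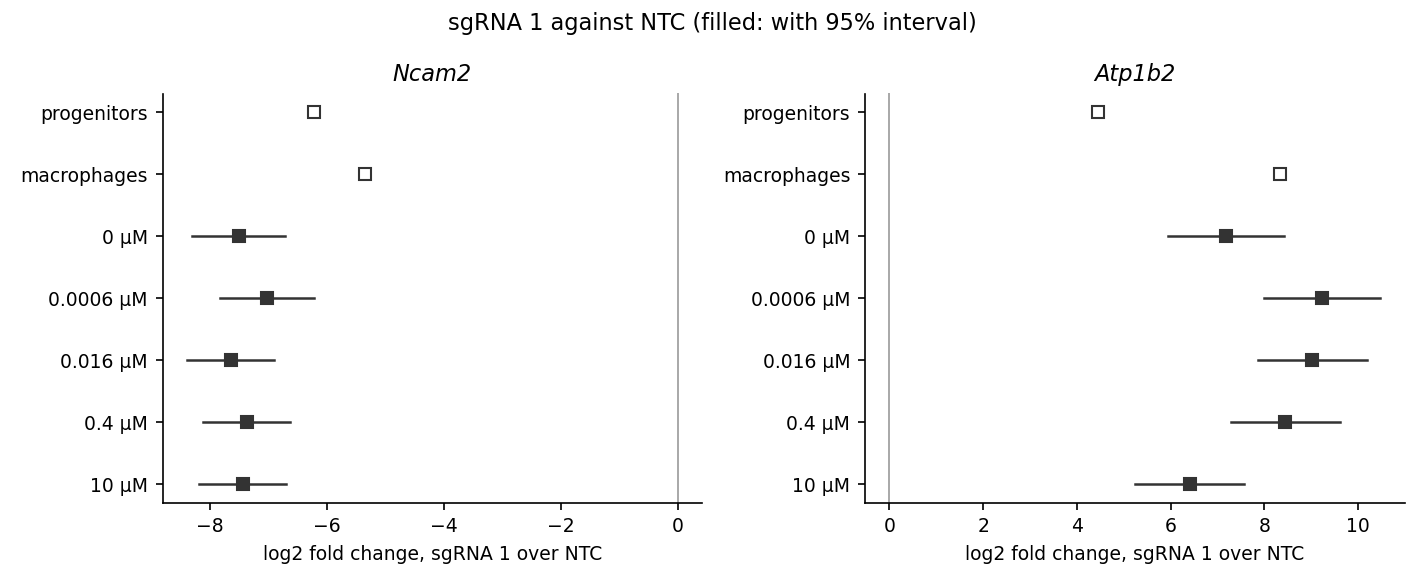
Log2FC of Ncam2 and Atp1b2 in sgRNA 1 against NTC, with 95% intervals at the 5 doses (filled). The open squares, with no interval, are the progenitors that chose the members and the macrophages that share their fit.

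In cells without a guide, Atp1b2 was a gene of BM progenitors. Its log2 CPM was 6.59, 4.93 and 5.48 in BM progenitors, -0.42, -0.38 and 0.22 in BM monocytes, and -3.19, -2.21 and -3.05 in ER-Hoxb8 progenitors. At day 4 it was -2.91, -3.73 and -2.81, at or under the floor in each library. The order was thus BM progenitors, BM monocytes, ER-Hoxb8 progenitors and day 4 cells, and the last 2 overlapped. Atp1b2 was called lower in ER-Hoxb8 than in BM progenitors, with a log2FC of -8.48 (SE 0.56, adjusted p = 1.04e-06 in limma) and a ratio of 535 in counts (95% counting interval 313 to 1005). Of 12056 genes 15.3% were called there (1843), and Atp1b2, which passed the filter of this set through the BM progenitors, was called with no filter as well. With ER-Hoxb8 progenitor replicate 3 alone, the library with progenitor markers, Atp1b2 was -8.72 (adjusted p = 3.37e-05, range over alternatives 3.53e-07 to 3.37e-05), an alternative chosen after seeing the data in which the lone library is assumed to vary like the other groups. BM monocytes were lower than BM progenitors as well (-5.86, SE 0.56, adjusted p = 0.000268, ratio 65.6 with a 95% counting interval of 54.7 to 79.2), where 6.84% of genes were called (825). That count was 376 and 434 without BM progenitor replicates 1 and 3, and 529 and 540 without BM monocyte replicates 2 and 3. BM progenitors also carried neutrophil genes, whose part in the level of Atp1b2 was not tested.

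Atp1b2 was at or under the floor in 2 of 3 ER-Hoxb8 progenitor libraries and 3 of 3 at day 4, so a change between them could not be judged. Between day 4 cells and ER-Hoxb8 progenitors its log2FC was -0.34, given without the test. The replicate block gave -0.34 too, as it must with the same replicates in both groups. Between libraries of the same replicate number, deviations from the group means correlated with r from 0.226 to 0.427. In this comparison 0% of 12056 genes were called in limma (1129 at an unadjusted p under 0.05). That count was 733 without ER-Hoxb8 progenitor replicate 2, 1 without replicate 1, 2 without day 4 replicate 2, and 1209 with progenitor replicate 3 alone. Ncam2 was low throughout this set and did not pass its filter. It was -3.40, -2.05 and -2.01 log2 CPM in BM progenitors, -1.03, -0.21 and -1.90 in BM monocytes, -2.54, -1.15 and -3.36 in ER-Hoxb8 progenitors and -2.41, -2.11 and -1.49 at day 4. BM monocytes had the highest Ncam2, with 3.33 times the CPM of BM progenitors (95% counting interval 2.02 to 5.72), which they did not overlap, while the other groups overlapped both. ER-Hoxb8 progenitors without a guide thus had neither the Ncam2 of the NTC line nor the Atp1b2 of the sgRNA 1 line, with the sets side by side and no test.

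In macrophages without a guide both members were low, and in brain cells Atp1b2 ranged up to 2.64 log2 CPM. Atp1b2 was -2.46, -1.40 and -0.58 in BMD macrophages and -2.17, -2.59 and -2.73 in ER-Hoxb8 macrophages. Ncam2 was -1.65, -1.17 and -2.55 in BMD macrophages and -2.10, -2.55 and -1.73 in ER-Hoxb8 macrophages. In BMD MLCs Atp1b2 ran from -3.62 to 1.67 (median 0.13), in ER-Hoxb8 MLCs from -3.62 to 2.64 (median 0.58) and in microglia from -1.05 to 0.81 (median -0.21). Both MLC groups thus spanned the whole range of the microglia for Atp1b2, with 2 of 6 libraries at or under the floor in each. Ncam2 ran from -0.45 to 0.24 (median -0.12) in BMD MLCs, from -1.66 to 1.65 (median 0.46) in ER-Hoxb8 MLCs and from -2.08 to -0.08 (median -0.95) in microglia. For Ncam2 the order was ER-Hoxb8 MLCs, BMD MLCs, microglia, BMD macrophages and ER-Hoxb8 macrophages, and each neighbour in it overlapped the next.

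Atp1b2 was tested in this set and called in none of its 5 comparisons, and Ncam2 did not pass the filter. The log2FC of Atp1b2 was -1.02 (SE 1.38) in ER-Hoxb8 against BMD macrophages, where 1.85% of 12518 genes were called (232, or 151 without BMD macrophage replicate 1). It was 2.27 (SE 1.19, adjusted p = 0.14) in ER-Hoxb8 MLCs against ER-Hoxb8 macrophages, where 19.3% were called (2416). Without ER-Hoxb8 MLC replicate 5 or replicate 6, both at 0 counts of Atp1b2, that value was 2.94 and was called. The library names split this group into 2 series, replicates 1 to 3 (GFPHox) and 4 to 6 (WTHox), which the labels give as 1 group. The labels do not say whether these are the Cas9 cells of the macrophages. The log2FC of Atp1b2 was 0.80 (SE 1.19, adjusted p = 0.642 in limma) in BMD MLCs against BMD macrophages (15.9% called, 1995). Against microglia it was -0.09 (SE 0.89, adjusted p = 0.955) for ER-Hoxb8 MLCs (16.3% called, 2040) and -0.53 (SE 0.89, adjusted p = 0.75) for BMD MLCs (10.7% called, 1338). In microglia replicate 8 Ncam2 was -2.08, the lowest of the group and at the floor, and Atp1b2 was 0.54, above the median, in the library with the highest sums of neuron (152 CPM), astrocyte (906 CPM) and oligodendrocyte (632 CPM) genes. Neutrophil genes summed to 13337 CPM in BMD MLCs, 6786 in ER-Hoxb8 MLCs and 1435 in microglia, and endothelial genes to 18.2, 32.3 and 47.2 CPM. Microglia genes summed to 12297, 6507 and 61495 CPM in these groups. Astrocyte genes summed to 27.1 to 42.8 CPM in BMD MLC libraries, 38.8 to 141 in ER-Hoxb8 MLCs and 173 to 906 in microglia. Cells of these 3 groups were FACS sorted, with stains for CD45 and CD11B in the study's methods, and the part of other cells in the members' levels was not tested. ER-Hoxb8 MLCs had interferon medians of 6.60 to 8.24. In their replicates 1 to 6, astrocyte genes summed to 38.8, 92.6, 61.1, 141, 52.8 and 39.4 CPM. Atp1b2 was 0.717, 6.14, 4.01, 2.73, 0 and 0 CPM in these libraries, and a link was not tested.

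**Figure D4:**
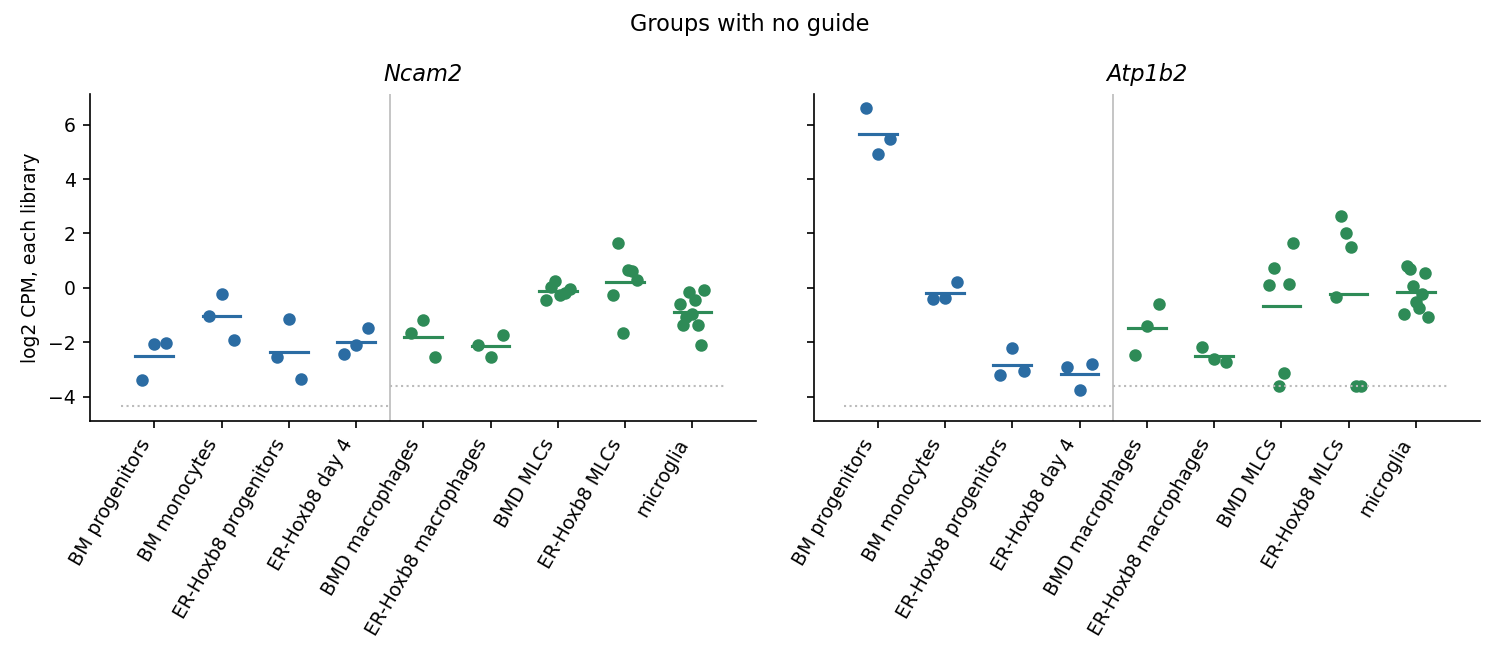
Log2 CPM of Ncam2 and Atp1b2 in each library of the 9 groups with no guide, with bars at the group means and dotted lines at the lowest value of each set; the vertical line divides the 2 sets. Atp1b2 in BM progenitors (4.93 to 6.59) lies above every other library drawn, and Ncam2 does not exceed 1.65.

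Of other genes of the pump of Atp1b2, a part of those tested is given here, with no tally over the pump. For the guide lines these are the beta subunit gene Atp1b3 and Fxyd5, a small regulator of the pump. With sgRNA 1 against NTC, limma called neither of these in any of the 7 contrasts. Atp1b3 had a log2FC of 0.01 in macrophages and 1.16 at 10 uM (adjusted p = 8.31e-05), under the limit of 2. Fxyd5 had 0.23 in macrophages and -0.33 at 10 uM (adjusted p = 0.00246). Beside Atp1b2, ER-Hoxb8 progenitors had less Atp1b1 than BM progenitors (-5.67, adjusted p = 0.000102) and more Fxyd5 (2.04, adjusted p = 0.0405). The related stomach proton pump gene Atp4a, tested in the marrow set, was lower than in BM progenitors in ER-Hoxb8 progenitors (-5.53) and in BM monocytes (-2.53).

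Relatives of Ncam2 were mostly untested or uncalled. Of 17 listed NCAM and related immunoglobulin adhesion genes, 4 or 5 were tested, and besides Ncam2 limma called 0 in the 7 contrasts (0, 1, 1, 1, 2, 0 and 2 at an unadjusted p under 0.05). With 0.254% to 5.12% of all genes called there, 0 of so few genes sets no family apart. Ncam1, the closest relative, had a log2FC of -0.03 in progenitors and was near its floor in macrophages of both lines. L1cam, an adhesion molecule of axons, was lower at 0.0006 uM (-1.54, adjusted p = 3.08e-08) and 10 uM (-1.35, adjusted p = 3.18e-08) without reaching the limit of 2. Of 9 listed NCAM partners and polysialyltransferases, 4 were tested, and 1, the kinase gene Fyn, was called, lower at 0.016 uM (-2.43, adjusted p = 0.000255). At the other contrasts limma called 0 of the 4 (0, 3, 3, 3, 3 and 3 at an unadjusted p under 0.05). From sgRNA 2 progenitors to macrophages, where Ncam2 was not tested, Alcam (5.40), L1cam (5.23), Fyn (3.17) and Prnp (4.19) were higher. They were 2 of 2 tested genes of the first list and 2 of 4 of the second, where 19.3% of 10698 genes were called.

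**Figure D5:**
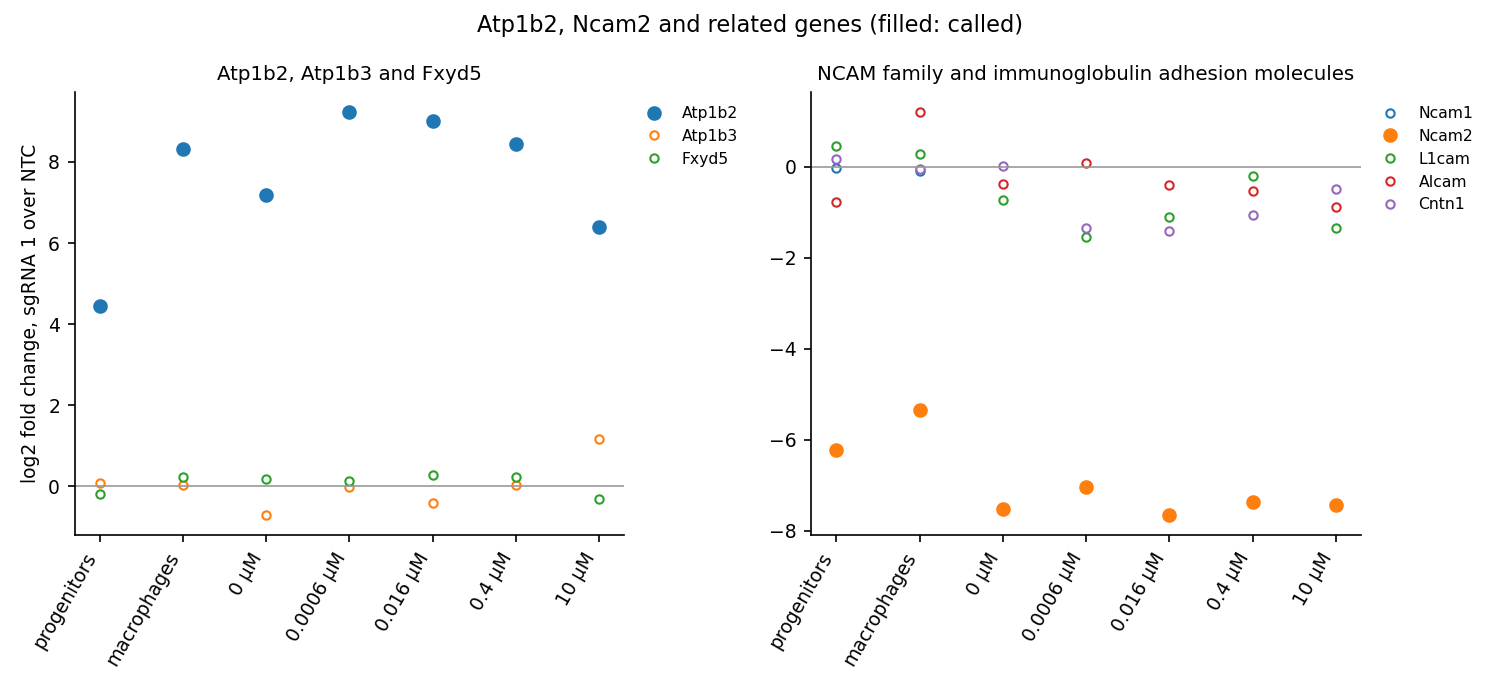
Log2FC of Atp1b2, Atp1b3 and Fxyd5 and of the tested genes of the NCAM list in the 7 contrasts of sgRNA 1 against NTC, filled where called. Atp1b2 (4.45 to 9.23) and Ncam2 (-7.65 to -5.35) lie apart from the related genes drawn, which are a part of the pump genes tested and of which none is filled.

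Few chromosomal neighbours of the members were tested. Ncam2 lies on chromosome 16 between the pseudogenes Rps19-ps12 and Rpl21-ps5, with Tmprss15, Chodl, Mrpl39 and Jam2 beyond (order from a GRCm38.p6 gene table). Of these 6, Mrpl39 was tested in all 7 contrasts, with log2FC from -0.24 to 0.31 and never called, and Jam2 at the 5 doses, called lower at 0.0006 uM (-2.27, adjusted p = 0.0109). Atp1b2 lies on chromosome 11 next to Trp53, the p53 gene, and Shbg, with Wrap53, Efnb3, Sat2 and Gm12308 beyond. Trp53 and Wrap53 were tested in all 7 contrasts and called in none (1, 1, 2, 2, 2, 1 and 2 at an unadjusted p under 0.05 in limma). Wrap53 had 1.30 in macrophages (adjusted p = 0.000134) and -0.83 at 10 uM (adjusted p = 0.000316), and Trp53 had -0.54 in progenitors. Of 8 listed p53 targets and Trp53, 6 were tested and 0 called in the 7 contrasts (3, 1, 3, 3, 3, 1 and 4 at an unadjusted p under 0.05). Over all genes that p was met by 725 and 3938 of 11008 in progenitors and macrophages, and by 4091, 4280, 4626, 3177 and 5754 of 11152 at the 5 doses, the background of each such list. In sgRNA 1 macrophages at 10 against 0 uM, Wrap53 was lower (-2.11, adjusted p = 4.11e-11), as were Sesn2 (-2.68) and, short of the limit, Atp1b2 (-1.99), while Cdkn1a was higher (2.24).

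Over the 33 baricitinib libraries, the genes most like Ncam2 by Pearson r of log2 CPM were Pls3 (0.98), Ngfrap1 (0.98), Plxdc1 (0.98), Folr4 (0.97) and Colec12 (0.97). Those least like it were Clec4n (-0.97), Atp1b2 (-0.96) and Fcgr2b (-0.96). The genes most like Atp1b2 were Clec4n (0.97), H2-DMb1 (0.95), Cd86 (0.94), Cd164 (0.94) and Mcemp1 (0.93), and the least like Ngfrap1 (-0.97), Pls3 (-0.96) and Ncam2 (-0.96). These libraries form 2 clusters, the 17 of NTC and the 16 of sgRNA 1, and r describes the gap between them. Within the lines r was smaller: between Ncam2 and Atp1b2 it was -0.45 in NTC and -0.08 in sgRNA 1, values added after seeing the data. Atp1b2 was at or under its floor in 15 of the 17 NTC libraries and Ncam2 in 7 of the 16 of sgRNA 1, so r there follows the prior count in large part. With Ncam2 in NTC, where it is high, r was 0.80 for Pls3, 0.19 for Ngfrap1, 0.10 for Plxdc1, -0.28 for Folr4 and -0.38 for Colec12. With Atp1b2 in sgRNA 1, r was 0.41 for Clec4n, 0.66 for H2-DMb1, 0.15 for Cd86, 0.38 for Cd164 and 0.69 for Mcemp1. Over the 11 libraries of both stages, r between Ncam2 and Atp1b2 was -0.88, but these hold the progenitors that chose the members for opposite changes. Over the 33 baricitinib libraries, 42 of 11151 other genes had r over 0.9 and 25 under -0.9 with Ncam2, and 21 and 32 with Atp1b2. These counts too describe the gap between the 2 clusters.

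The called genes next to the members in the choosing contrast did not all keep pace with them. Pls3 was lower in sgRNA 1 at all 5 doses (-4.94 to -4.04) like Ncam2, but its log2FC in macrophages was -1.60 (adjusted p = 0.00227), short of the limit. In the sgRNA 2 line Pls3 was 3.9 in progenitors and 7.16 in macrophages, where Ncam2 was near its floor. Stag3, a cohesin subunit gene of meiosis, was higher in sgRNA 1 macrophages (4.36, adjusted p = 0.000651) and at the 4 lower doses, as Atp1b2 was. In sgRNA 1 macrophages Stag3 fell by 3.02 from 0 to 10 uM (adjusted p = 7.17e-06). In the sgRNA 2 line Stag3 was low, at -1.59 in progenitors and -1.40 in macrophages. Lin28b, an RNA-binding protein gene of immature cells, was at or under its floor in macrophages of both lines. Prkch had a log2FC of 1.73 in macrophages and 1.25 to 1.82 at the 5 doses, never called. Lat2 was called lower at 0 and 0.0006 uM alone (-2.24 and -2.06), and Fah had -0.96 in macrophages, not called.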

How the data were processed

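The authors quantified reads with kallisto 0.46.0, summed them to genes and deposited log2 CPM after TMM scaling, and no raw reads were used. Libraries were compared only where they share 1 lowest value, and CPM was rebuilt by removing the prior count at that value. Fits used limma 3.58.1 (trend) in R 4.3.3 on genes above 1 CPM in at least 3 libraries (6 in the set with brain cells). A gene was called at a Benjamini-Hochberg adjusted p under 0.05 with an absolute log2FC of 2 or more. Estimated depth ran from 6.09 to 52.6 M counts, and 3 counts were the floor. Ncam2 and Atp1b2 were chosen with earlier results of these data known, as were the lists. Named genes are the members, Adar, the lists (pump, NCAM, partner, p53, neighbour, interferon-stimulated and cell marker genes), and the next 3 called genes in each direction. Alternatives were another log2FC limit, no filter, other offsets, quantile normalization, no trend, array weights, a replicate block, each library left out, all NTC macrophages and rank correlation. Correlation within lines, ER-Hoxb8 progenitor replicate 3 alone and macrophage libraries alone (with and without the filter) were added after seeing the data. Python 3.11.15, numpy 2.4.6, pandas 2.3.3, scipy 1.17.1 and matplotlib 3.10.9 did the rest.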

Additional observations from a re-analysis of the deposited data

Results flagged for a closer look

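Ncam2 in NTC macrophages at 0.016 uM baricitinib was 6.51 log2 CPM in replicate 2, apart from 6.13, 6.19 and 6.17 in the others. The share of the range taken by that gap was 0.847 against a limit of 0.829. Such a gap is passed by chance in about 1 of 20 checks, and 21 checks of a gene in a group were made.

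From progenitors to macrophages Atp1b2 differed by 1.34 log2 in sgRNA 1 and by -2.53 in NTC, which are 3.87 apart and opposite in direction. It used the libraries that chose Atp1b2 and was not tested.

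Adar had an interaction of genotype with 10 uM baricitinib of -3.21 log2, with a larger difference between 10 and 0 uM in sgRNA 1 than in NTC macrophages.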

How the results depend on the processing

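Of 615 alternatives over 40 results of the members, 579 left the call or the value the same, 10 made it stronger, 3 moved it and 23 reversed its sign. For the 13 results called outside that of the progenitors and that of Ncam2 in macrophages, all 191 alternatives kept the call, but the values moved with log2(CPM + 1). In sgRNA 1 against NTC macrophages, Ncam2 went from -5.35 to -2.99 and Atp1b2 from 8.32 to 5.50. At 10 uM, Atp1b2 went from 6.40 to 4.08, and in ER-Hoxb8 against BM progenitors from -8.48 to -5.56. In sgRNA 1 against NTC progenitors, which chose the members, log2(CPM + 1) gave Ncam2 -4.53 and Atp1b2 3.48.

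Atp1b2 in sgRNA 1 macrophages at 10 against 0 uM was called with a log2FC limit of 1 (-1.99) and with the replicate block (-2.18), and ran from -2.39 to -1.49 with libraries left out. At 0.4 against 0 uM it ran from -0.27 without 0.4 uM replicate 3 to 0.60 without replicate 2.

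The Atp1b2 interaction of genotype by 10 uM ran from -1.58 to -0.532 over settings and from -1.30 to -0.279 with libraries left out, with an adjusted p of 0.0368 to 0.82 and no call.

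Uncalled values near 0 changed sign. For Ncam2, genotype by 10 uM baricitinib interaction, the value was -0.0528 with log2(CPM + 1) and -0.60 with array weights, and -0.23 to 0.59 with libraries left out. In sgRNA 1 macrophages Ncam2 at 0.016 against 0 uM was -0.0764 with quantile normalization and -0.12 to 0.26 with libraries left out. At 10 against 0 uM it was -0.38 with array weights and -0.0277 to 0.79 with libraries left out.

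Atp1b2 in ER-Hoxb8 MLCs against microglia was 0.40 with log2(CPM + 1), 0.64 with quantile normalization and 0.58 with array weights, and -0.66 to 0.59 with libraries left out. For Atp1b2, BMD MLCs against microglia, it was 0.0059 with log2(CPM + 1) and 0.28 with array weights, and -1.0047 to 0.0521 with libraries left out. Array weights called Atp1b2 higher in ER-Hoxb8 MLCs against ER-Hoxb8 macrophages (2.87, adjusted p = 0.0254 in limma, range 0.0254 to 0.272) and in BMD MLCs against BMD macrophages (2.29, adjusted p = 0.00877, range 0.00877 to 0.985). The first ran from 1.69 to 2.94 with libraries left out. The cause was not tested.

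With array weights, interferon-stimulated genes called were 4 for sgRNA 1 against NTC at 0.4 uM and 19 for sgRNA 1 at 0.4 against 0 uM. They were 1, 7 and 10 for NTC at 0.016, 0.4 and 10 against 0 uM, where the main fit called 0, 0 and 6. With libraries left out they were 4 to 20 for sgRNA 1 against NTC at 0.4 uM, 0 to 19 for sgRNA 1 at 0.4 against 0 uM and 3 to 5 for NTC at 10 against 0 uM.

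By Spearman in place of Pearson, 0 of the 5 genes most like Ncam2 and 0 of the 3 least like it were shared, and 1 of 5 and 0 of 3 for Atp1b2.

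Of the 25 counts of genes called, 21 moved more than 1.5 times with a log2FC limit of 1, 14 with log2(CPM + 1), 7 with array weights, 2 each with quantile normalization and the replicate block, and 1 without the filter. With ER-Hoxb8 progenitor replicate 3 alone, an alternative added after seeing the data, 1 of 2 moved.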

Other observations

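In the contrast that chose Ncam2 and Atp1b2, 6 of the 19 genes lower in sgRNA 1 progenitors lie on the X chromosome (31.6%): Pls3, Ngfrap1, Wbp5, Taf9b, Bhlhb9 and 3830403N18Rik. Of the 9 higher genes 1 does (Plp2, 11.1%), and of the 10877 tested genes with a known chromosome 338 do (3.11%). In macrophages 6 of 84 lower genes (7.14%) and 1 of 348 higher genes (0.287%) lie there. At baricitinib doses from 0 to 10 uM, 4.61%, 4.29%, 3.91%, 6.56% and 2.29% of the lower genes do, and 0%, 0.897%, 1.17%, 1.48% and 3.61% of the higher genes, against 3.10% of those tested. At 10 uM 3830403N18Rik is among the higher genes. The count was chosen after the values were seen and no test was made.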
